A study of Mus musculus with 48 samples.

Results

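The 10 genes described here encode the muscle acetylcholine receptor and the proteins that gather it at the neuromuscular junction. They were chosen by name as the 5 receptor subunits (Chrna1, Chrnb1, Chrnd, Chrng and Chrne) and 5 genes of the agrin pathway and its scaffold (Agrn, Lrp4, Musk, Dok7 and Rapsn). All 10 were among the 47480 gene symbols of the count tables. The study sequenced mRNA of C2C12, a mouse line of muscle precursors, in 48 libraries that form 12 groups of 4. The cells were myoblasts, kept in growth medium, or differentiated cells, kept in horse serum for 4 days to form myotubes. No share of fused cells is given for these cultures. Both stages were grown on collagen-coated flexible membranes. In each stage, cells were stretched cyclically and equally in all directions over 1 h, 3 h and 6 h, or were kept on the same kind of plate for the same time without stretching. The labels name the molecule as nuclear RNA, whereas the study's methods describe RNA extracted from washed cells with a column kit, so whether the levels are of nuclei or whole cells is not certain. No neuron was added to any culture, and 1 cell line stands for muscle throughout. In mm10 (GENCODE vM21), Chrna1 lies at chr2:73563215-73580338, Chrnb1 at chr11:69784036-69795943, Musk at chr4:58285960-58374303, Dok7 at chr5:35056766-35087839, Agrn at chr4:156165290-156197488 and Lrp4 at chr2:91457511-91513779.

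At the adult junction, the nerve ending releases agrin, which binds LRP4 on the muscle membrane and activates the receptor kinase MuSK. DOK7 binds MuSK from the inside and is needed for its activity, and rapsyn anchors the acetylcholine receptors in dense clusters beneath the nerve. The receptor is a pentamer of the alpha, beta and delta subunits with either the gamma subunit, the fetal form, or the epsilon subunit, which replaces gamma in innervated adult muscle. During myogenesis these genes are switched on by the MyoD family of transcription factors, which bind short E-box motifs (CANNTG), and the N-box (CCGGAA or TTCCGG), bound by ETS factors, directs transcription to nuclei beneath the synapse.

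Promoter windows of RefSeq (build GRCm38.p6, from 250 bases before to 50 bases after the annotated start) were found for 7 of the 10 genes. Those of Chrna1, Chrng, Chrne, Musk and Agrn are shown, because Chrng and Chrne differed most between the stages, Chrna1 had the highest level, Musk is the receptor kinase and Agrn differed least. Capitals mark the E-boxes and the N-box. The windows lie at chr2:73580289-73580588 (minus strand), chr1:87205561-87205860 (plus strand), chr11:70619145-70619444 (minus strand), chr4:58285712-58286011 (plus strand) and chr4:156197439-156197738 (minus strand). The RefSeq start of Chrng lies inside the GENCODE gene, downstream of its first base.
Chrna1: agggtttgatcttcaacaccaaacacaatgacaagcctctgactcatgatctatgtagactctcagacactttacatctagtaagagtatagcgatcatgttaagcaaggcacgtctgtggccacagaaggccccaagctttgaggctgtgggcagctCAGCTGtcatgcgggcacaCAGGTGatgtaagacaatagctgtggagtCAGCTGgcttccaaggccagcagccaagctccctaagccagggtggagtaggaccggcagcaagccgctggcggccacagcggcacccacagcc
Chrng: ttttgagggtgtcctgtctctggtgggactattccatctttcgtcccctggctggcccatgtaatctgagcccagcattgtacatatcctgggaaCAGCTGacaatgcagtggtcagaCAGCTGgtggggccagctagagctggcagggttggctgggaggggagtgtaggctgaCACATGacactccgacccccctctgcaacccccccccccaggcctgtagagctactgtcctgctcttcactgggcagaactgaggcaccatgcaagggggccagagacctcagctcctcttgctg
Chrne: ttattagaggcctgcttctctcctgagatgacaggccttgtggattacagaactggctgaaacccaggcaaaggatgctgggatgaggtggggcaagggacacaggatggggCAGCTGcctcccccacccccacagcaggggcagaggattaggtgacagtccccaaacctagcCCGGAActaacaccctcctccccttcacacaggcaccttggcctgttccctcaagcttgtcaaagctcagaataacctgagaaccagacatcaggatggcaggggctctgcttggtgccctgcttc
Musk: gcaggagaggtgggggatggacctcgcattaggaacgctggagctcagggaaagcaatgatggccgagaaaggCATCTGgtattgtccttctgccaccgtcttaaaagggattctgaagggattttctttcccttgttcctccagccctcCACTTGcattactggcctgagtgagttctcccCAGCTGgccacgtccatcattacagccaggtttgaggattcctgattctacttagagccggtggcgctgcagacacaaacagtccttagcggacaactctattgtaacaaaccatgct
Agrn: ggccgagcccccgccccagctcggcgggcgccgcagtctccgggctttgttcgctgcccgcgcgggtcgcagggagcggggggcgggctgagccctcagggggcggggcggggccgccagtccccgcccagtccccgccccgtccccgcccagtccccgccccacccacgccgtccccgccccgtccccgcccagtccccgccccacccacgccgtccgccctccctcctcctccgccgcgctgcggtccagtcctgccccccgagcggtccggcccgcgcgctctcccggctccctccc
Chrna1 held 3 E-boxes, at -92, -73 and -44 from the start, and Chrng held 3, at -155, -132 and -75. In both genes 2 of them were CAGCTG, a form that occurred at least 2 times in 1.9% of 32851 windows of this length and at least 1 time in 16.3%. Musk held 3 E-boxes, at -177, -100 and -68, and Chrnb1 held 3, at -119, -96 and -29. Chrne held 1 E-box, at -138, and 1 N-box, at -76. The upstream window of Agrn held no match to either motif, and its second window, at another start, held 1 E-box at -92. Dok7 held 1 E-box, at -149, in its first window and 0 in its second. Of all windows, 72.3% held an E-box, 39.6% held at least 2 and 14.9% held an N-box on either strand. A single match is thus common, and so are 2 or more E-boxes. CAGCTG is itself an E-box and is counted in the E-box shares too.

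Libraries held between 48447318 and 77080730 counts in genes. Summed markers of differentiated muscle (Myh3, Myh8, Ckm, Acta1, Ttn, Tnnt3, Actn2 and Casq2, the 8 of 10 listed markers in the tables) ranged from 16.6 to 57.1 CPM (a library's counts divided by its scaled total, in units of 1000000 counts) in the 24 myoblast libraries and from 11970 to 21250 CPM in the 24 differentiated libraries. Summed markers of proliferating myoblasts (Myf5, Pax7, Mki67, Top2a, Ccnb1, Cdk1 and Ccna2) ranged from 1745 to 2114 CPM and from 294.9 to 740.7 CPM. Of these, Pax7 alone was higher in non-stretched differentiated cells (log2 fold change 0.23 ± 0.03, SE; edgeR adjusted p = 3.31e-09). By these sums the cells carried the markers of their labels. Of 7 motor neuron markers, 6 (Chat, Isl1, Mnx1, Slc18a3, Snap25 and Syt1) stayed under 10 counts in every library. The stretched differentiated library replicate 4 at 1 h was the only one of its experiment, B17, and held the highest summed proliferation markers of its stage, 740.7 CPM. Results that rest on it are given with and without it.

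The first question was how the levels of these genes differed between the stages in cells that were not stretched (12 libraries each). The data showed higher levels in differentiated cells for 9 of the 10 genes, from 2.97-fold for Chrnb1 to 176-fold for Chrng. Agrn, the ligand of the pathway, differed by 1.41-fold, less than the limit of 0.58 on the log2 scale (1.5-fold) that was set for a call. The 9 called genes compare with 26.4% of all 15439 genes tested that were called higher and 24.1% called lower (edgeR, adjusted p under 0.05 and the fold limit). With no fold limit all 10 were higher, against 45.6% of all genes. The median log2 fold change was 2.46 for the 10 genes and 0.0068 for all genes. The myoblasts came from experiments B27 and B31 and the differentiated cells from B25 and B28, so that stage and experiment cannot be told apart. In these cultures a larger share of myotubes and more RNA per myotube cannot be told apart either.

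Of the receptor subunits, Chrna1, which carries most of the acetylcholine binding site, ranged from 283.5 to 329.9 CPM (median 299.8) in myoblasts and from 1349 to 1489 CPM (median 1448) in differentiated cells. Its log2 fold change was 2.22 ± 0.02 (SE; edgeR adjusted p = 1.6e-31). Chrnb1, the beta subunit, which is phosphorylated in response to agrin, ranged from 67.0 to 75.8 CPM (median 73.1) and from 198.0 to 236.4 CPM (median 219.3), a log2 fold change of 1.57 ± 0.02. The smallest rise among the subunits was thus that of Chrnb1. Chrnd, the delta subunit, ranged from 29.9 to 46.4 CPM (median 37.0) and from 273.1 to 317.7 CPM (median 289.5), a log2 fold change of 2.95 ± 0.04. Chrng, the fetal gamma subunit, ranged from 1.11 to 3.15 CPM (median 2.13) in myoblasts and from 358.1 to 430.3 CPM (median 393.1) in differentiated cells. The log2 fold change of Chrng was 7.46 ± 0.08 (edgeR adjusted p = 1.49e-31). In none of these 4 genes did the libraries of the stages overlap, and the edgeR adjusted p of the 9 called genes was at most 5.21e-20. These p-values and SEs treat libraries that share an experiment as separate. With counts summed per experiment, the edgeR adjusted p was 1.96e-07 for Chrna1 and 1.26e-07 for Chrng. Among the 9 called genes it was then highest for Chrne, at 8.27e-07.

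Chrne, the adult epsilon subunit, was close to absent from myoblasts. A total of 8 counts was found in 4 of the 12 non-stretched myoblast libraries (0.0111 CPM over the group, 95% exact Poisson interval 0.00478 to 0.0218). The differentiated libraries held 1003 counts in all and between 1.09 and 1.58 CPM each (median 1.38). The ratio of the pooled levels was 123 (95% exact interval 62.3 to 286, counting error only). The fitted log2 fold change of 6.68 depends on how such low counts are treated and moved between 5.55 and 9.33 over the alternatives, with a call in each. Chrne (chr11:70614883-70619216 in mm10, minus strand) overlaps the gene 4930544D05Rik on the plus strand. The libraries were made with a stranded kit, and whether the counting used strand is not given in the sources used here.

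**Figure D1:**
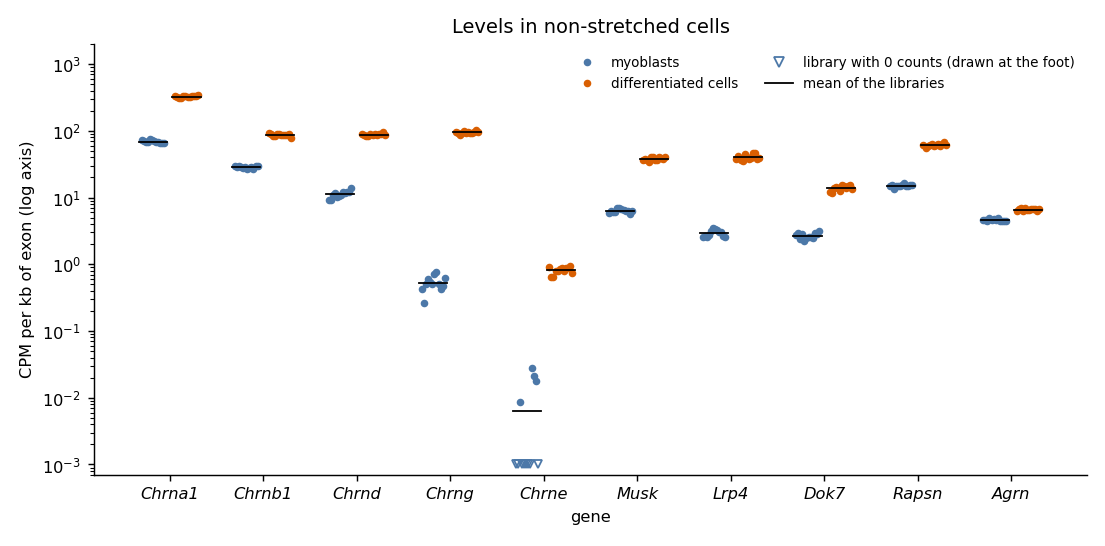
Level of each gene in the 12 non-stretched libraries of myoblasts (blue) and of differentiated cells (orange), as CPM per kb of exon on a log axis, with the mean as a black line. Libraries with 0 counts are drawn at the foot. Chrng moved from 0.532 to 94.9 CPM per kb, whereas Agrn moved from 4.60 to 6.60 CPM per kb.

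To compare genes with each other, levels were divided by the length of the union of their exons (GENCODE vM21) and are given as CPM per kb. In myoblasts the order was Chrna1 (68.9 ± 3.0, SD, n = 12), Chrnb1 (28.5 ± 1.1), Rapsn (15.2 ± 0.69), Chrnd (11.2 ± 1.4), Musk (6.33 ± 0.40), Agrn (4.60 ± 0.18), Lrp4 (2.93 ± 0.32), Dok7 (2.67 ± 0.28) and Chrng (0.532 ± 0.14), with Chrne last. The libraries of Rapsn and Chrnd overlapped, and so did those of Lrp4 and Dok7. In differentiated cells the order was Chrna1 (326.3 ± 10.3), Chrng (94.9 ± 4.2), Chrnd (88.0 ± 3.5), Chrnb1 (86.5 ± 3.8), Rapsn (61.3 ± 3.0), Lrp4 (40.1 ± 3.8), Musk (37.9 ± 1.9), Dok7 (13.9 ± 1.3), Agrn (6.60 ± 0.23) and Chrne (0.809 ± 0.094). Chrng, Chrnd and Chrnb1 overlapped with their neighbours in this order, and Lrp4 overlapped with Musk. The gamma subunit, next to last in myoblasts, thus held the second place in differentiated cells.

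The ratios of these levels were taken within each library. Chrng stood at 0.0475 ± 0.011 of Chrnd in myoblasts and at 1.08 ± 0.024 of Chrnd in differentiated cells (SD, n = 12). Chrng was 118.5 ± 11.7 times as high as Chrne in differentiated cells. Chrna1 stood at 6.27 ± 0.99 times Chrnd in myoblasts and at 3.71 ± 0.10 times Chrnd in differentiated cells. These ratios are of mRNA, not of protein. With the length of the longest transcript in place of the exon union, Chrnb1 (101.5) came before Chrnd (98.1) in differentiated cells. In myoblasts Dok7 then came before Lrp4. Ratios between genes depend on this choice too. The exon union and the longest transcript hold 4163 and 2780 bases for Chrng, and 3288 and 2949 bases for Chrnd. By the longest transcript Chrng thus stands higher relative to Chrnd, and the ratio of 1.08 holds for the exon union only.

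Of the agrin pathway, Musk, the receptor kinase, ranged from 21.6 to 26.2 CPM (median 23.6) in myoblasts and from 128.5 to 151.7 CPM (median 143.0) in differentiated cells. Its log2 fold change was 2.56 ± 0.03 (edgeR adjusted p = 4.47e-31). Lrp4, the agrin receptor, ranged from 26.99 to 36.4 CPM (median 30.5) and from 366.0 to 485.8 CPM (median 411.3), a log2 fold change of 3.75 ± 0.05. Lrp4 thus rose more than its partner kinase, and the ratio of Musk to Lrp4 per length went from 2.18 ± 0.15 to 0.950 ± 0.055. Dok7, the activator of MuSK, ranged from 9.48 to 13.4 CPM (median 11.3) and from 50.6 to 67.0 CPM (median 59.3), a log2 fold change of 2.36 ± 0.05. Rapsn, the receptor anchor, ranged from 24.0 to 29.4 CPM (median 27.2) and from 99.9 to 122.6 CPM (median 111.0), a log2 fold change of 1.99 ± 0.03. Agrn ranged from 40.8 to 45.3 CPM (median 42.5) and from 57.4 to 63.7 CPM (median 62.0) (log2 fold change 0.49 ± 0.02, edgeR adjusted p = 8.28e-18). The stages did not overlap for any of these 5 genes either. The share of all genes without overlap between groups, by stage or by stretching, was not computed. Gene counts do not tell the nerve form of agrin mRNA, which carries extra exons, from the muscle form.

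Genes known to act with these 10 moved with the stage in both directions. Of 32 other genes of the postsynaptic membrane and the synaptic cleft, all 32 were tested. In differentiated cells 17 were called higher and 1 lower, with a median log2 fold change of 1.07. Of all 15439 genes tested, 26.4% were called higher and 24.1% lower. Dmd (dystrophin) had 0 counts in every non-stretched myoblast library and 11.7 ± 1.7 CPM (SD, n = 12) in differentiated cells, which is at least 2810-fold higher than 3 counts over the myoblast group. Scn4a, the muscle sodium channel, rose from 0.0641 ± 0.048 to 157.3 ± 11.5 CPM. Colq, the collagen tail of acetylcholinesterase, rose from 0.0212 ± 0.015 to 10.6 ± 1.2 CPM, and Ache, the esterase itself, rose from 0.0425 ± 0.033 to 2.59 ± 0.46 CPM. Sntb1, a syntrophin of the dystrophin complex, rose from 4.67 ± 0.35 to 65.4 ± 4.8 CPM.

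Of 22 regulators of synaptic gene transcription, 20 were tested, 11 were called higher and 7 lower, with a median log2 fold change of 0.62. The shares of all genes called higher and lower were 26.4% and 24.1%. Myog, the MyoD family factor that drives terminal differentiation, rose from 1.58 ± 0.89 to 882 ± 55.9 CPM (SD, n = 12). Mef2c, its partner factor, rose by 6.85 ± 0.06 on the log2 scale (SE). Erbb3, a receptor for neuregulin, rose by 4.08 ± 0.04, and Hdac9, a repressor of synaptic genes in innervated muscle, rose by 3.01 ± 0.10. Id3, an inhibitor of MyoD family factors, fell by 2.90 on the log2 scale (SE 0.07), and Sik1 rose by 2.72 ± 0.03.

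**Figure D2:**
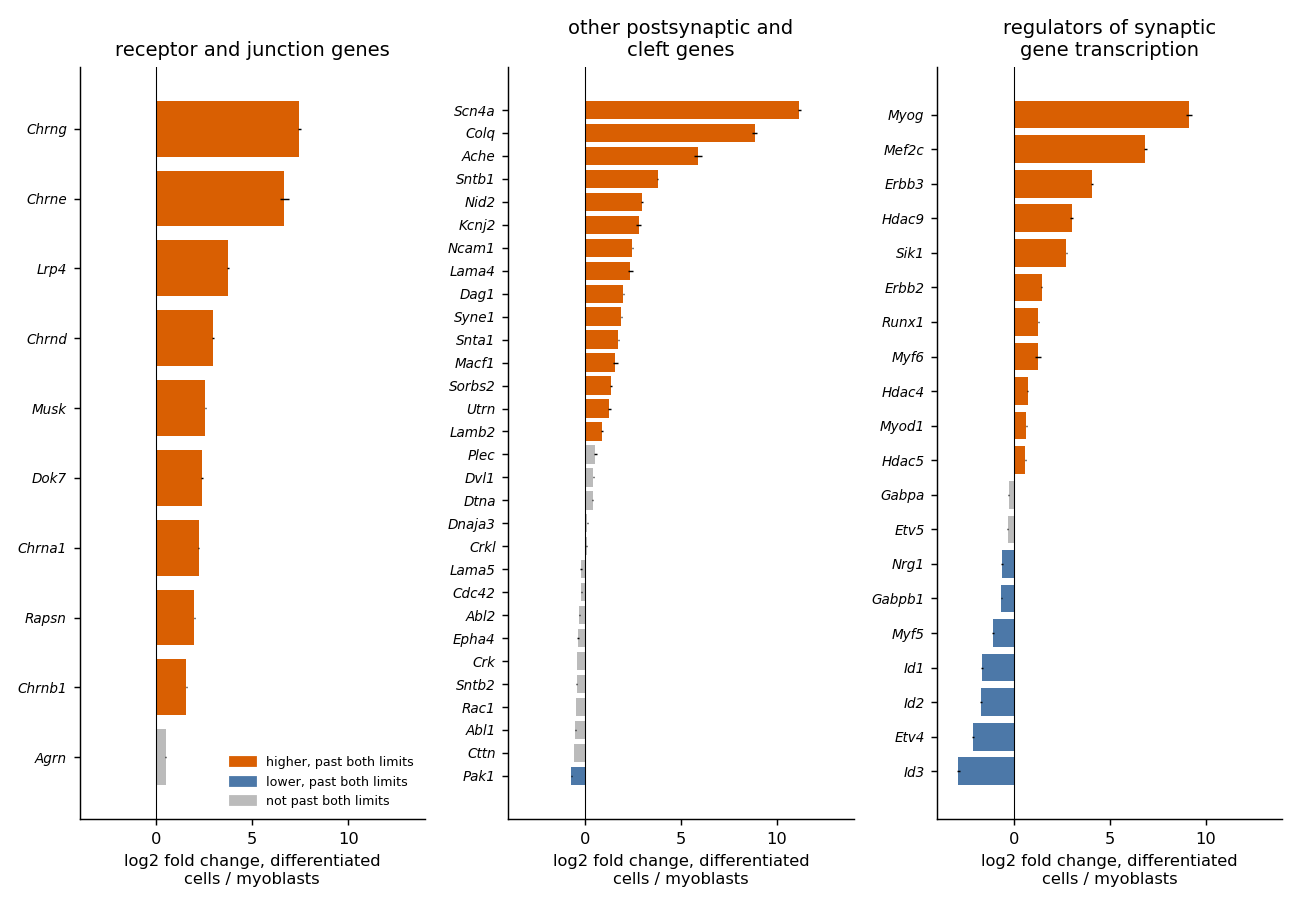
Log2 fold change of differentiated cells over myoblasts without stretching (12 libraries each), with the SE as a black line, for the 10 receptor and junction genes, the other postsynaptic and cleft genes and the regulators of their transcription. Orange and blue bars passed both limits and grey bars did not. Dmd, with 0 counts in myoblasts, and 1 further gene of the middle list are not drawn. All 10 genes of the left panel lie above 0, from 0.49 for Agrn to 7.46 for Chrng, and the other panels hold genes on both sides.

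The second question was whether stretching moved these genes. None of the 10 passed both limits (edgeR adjusted p under 0.05 and 0.58 on the log2 scale) at any time in either stage, and DESeq2 gave the same count of 0 in each of the 6 comparisons. The share of all tested genes past both limits was 1.25%, 1.71% and 2.17% in myoblasts and 0.27%, 1.63% and 2.04% in differentiated cells at 1 h, 3 h and 6 h, so that a count of 0 among 9 or 10 genes is close to the background. With the adjusted p alone, smaller differences passed for 0, 3 and 4 of 9 genes in myoblasts (all genes 5.92%, 31.9% and 27.2%). In differentiated cells the counts were 0, 0 and 4 of 10 genes (all genes 0.663%, 22.2% and 22.3%). Chrne did not pass the filter on low counts in myoblasts and was tested in differentiated cells only.

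**Figure D3:**
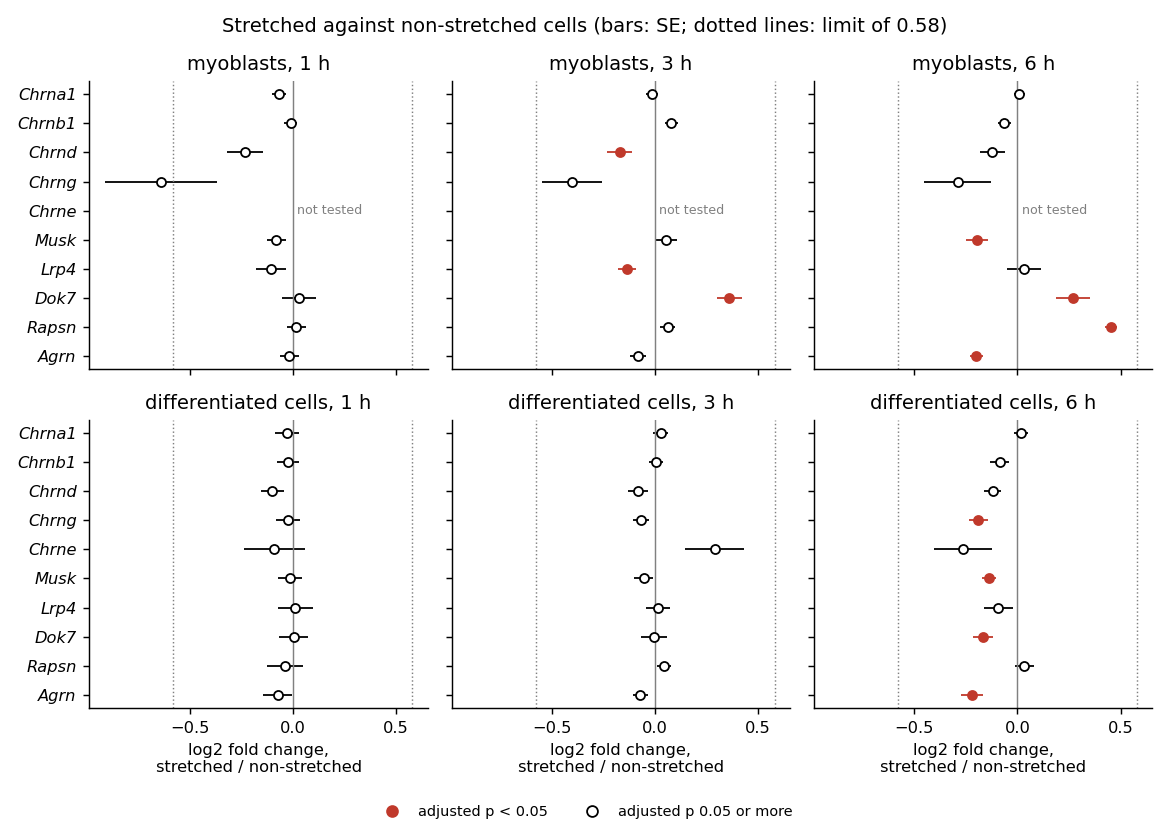
Log2 fold change of stretched over non-stretched cells for each gene, stage and time (4 libraries against 4, bars are SE). Filled red points had an adjusted p under 0.05 and dotted lines mark the limit of 0.58. The point beyond a dotted line is Chrng in myoblasts at 1 h, -0.64 with an SE of 0.27, and it is not filled.

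In myoblasts at 1 h, the 9 genes differed by -0.64 (Chrng) to 0.03 (Dok7) on the log2 scale, with SEs of 0.03 to 0.27. Unadjusted, Chrnd and Chrng had p under 0.05, and no gene did after adjustment (lowest edgeR adjusted p = 0.172, for Chrnd). With experiment as a covariate, Chrnd had an adjusted p of 0.0129 (edgeR), and its libraries did not overlap within either experiment, at -0.19 in B27 and -0.27 in B31. Chrng was low in this stage, with 70 to 153 counts a library without stretching and 42 to 109 with it at 1 h. It stood at 1.78, 1.11, 2.13 and 2.53 CPM in the non-stretched libraries (replicates 7 to 10) and at 1.05, 0.735, 1.27 and 1.77 CPM in the stretched ones. The groups overlapped, but they did not within either experiment, where the log2 difference was -0.70 in B27 and -0.62 in B31. Its edgeR adjusted p was 0.228, and 0.0559 with experiment as a covariate. For Chrnd and Chrng alike, each experiment held 2 stretched and 2 non-stretched libraries, and groups that small separate easily. The share of all genes that separated in this way was not computed.

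At 3 h in myoblasts, Dok7 was the gene with the clearest difference. It stood at 9.48, 10.5, 10.9 and 10.9 CPM without stretching and at 13.0, 12.5, 14.4 and 14.2 CPM with it. Every stretched library lay above every non-stretched one. The log2 fold change was 0.36 ± 0.06 (SE; edgeR adjusted p = 0.000769), and it was 0.35 in B27 and 0.40 in B31. Chrnd was lower by 0.17 ± 0.06 (edgeR adjusted p = 0.0484) and Lrp4 by 0.14 ± 0.04 (edgeR adjusted p = 0.0303), with overlapping libraries in both genes. Chrnd went past 0.05 when any of 6 libraries was left out (highest edgeR adjusted p = 0.160), and stayed under it only on removal of non-stretched replicate 7 or stretched replicate 10. Lrp4 went past 0.05 on removal of non-stretched replicate 8, 9 or 10, or of stretched replicate 9 or 10 (highest edgeR adjusted p = 0.0961). Neither gene stayed under 0.05 with all 24 libraries of the stage in 1 model. Chrng stood at 2.27, 2.13, 3.02 and 3.15 CPM and at 2.04, 2.28, 1.65 and 2.07 CPM. Its difference was -0.40 ± 0.15 (edgeR adjusted p = 0.0516), with -0.73 in B31 and -0.03 in B27.

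After 6 h in myoblasts, Rapsn was higher in stretched cells by 0.45 ± 0.03 on the log2 scale, or 1.37-fold (edgeR adjusted p = 9.88e-06). Without stretching it stood at 27.3, 27.2, 27.9 and 28.1 CPM, and with stretching at 36.5, 36.6, 38.0 and 38.2 CPM. The groups lay far apart relative to their spread (SDs of 0.43 and 0.89 CPM). The log2 difference was 0.42 in B27 and 0.44 in B31, and the adjusted p stayed between 2.61e-05 and 0.000131 when each library was left out. Rapsn (chr2:91035620-91045729 in mm10, plus strand) overlaps the gene Gm13778 on the minus strand.

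Agrn moved the other way at 6 h in myoblasts. It stood at 41.6, 41.5, 40.9 and 41.0 CPM without stretching and at 36.4, 34.3, 36.1 and 35.0 CPM with it, again with no overlap. The log2 fold change was -0.20 ± 0.03 (edgeR adjusted p = 0.0012), with -0.23 in B27 and -0.20 in B31. Musk was lower by 0.20 ± 0.05 (edgeR adjusted p = 0.018), at 23.5, 23.6, 21.6 and 23.4 CPM against 21.7, 19.5, 18.6 and 19.7 CPM. Here the highest stretched library lay just above the lowest non-stretched one. Dok7 was higher by 0.27 ± 0.08 (edgeR adjusted p = 0.029), at 10.5, 12.4, 12.1 and 13.4 CPM against 13.1, 13.5, 15.8 and 15.2 CPM. Musk lost its adjusted p under 0.05 on removal of non-stretched replicate 7 or 8, or of stretched replicate 9 (highest 0.0544). Dok7 did so on removal of non-stretched replicate 7, 8 or 9, or of stretched replicate 9 or 10 (highest 0.0826). Summed proliferation markers in these libraries ranged from 1971 to 2107 CPM without stretching and from 1745 to 1997 CPM with it. Of the 7, 4 were lower and 1 higher with an adjusted p under 0.05 (edgeR), and their part in these results was not tested.

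**Figure D4:**
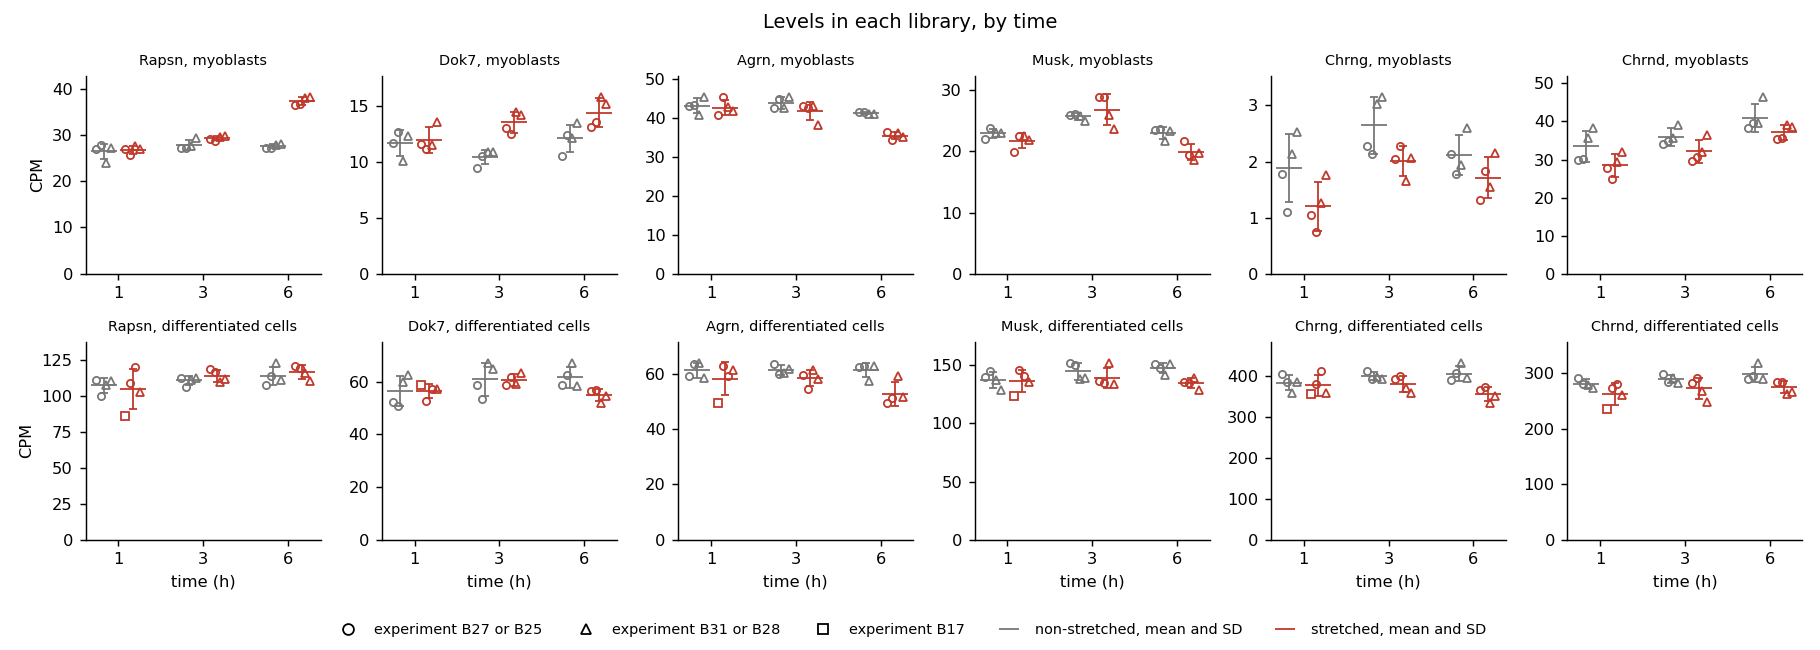
Level in CPM of 6 of the genes in every library, by time, in myoblasts (upper panels) and differentiated cells (lower panels). Grey is non-stretched and red is stretched, bars are the mean and SD of 4 libraries, and symbols are experiments. The 4 stretched myoblast libraries of Rapsn at 6 h sit between 36.5 and 38.2 CPM, above all others of that stage, while in differentiated cells at 6 h the stretched libraries of Chrng, Musk, Dok7 and Chrnd sit below the non-stretched ones.

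In differentiated cells at 1 h, the 10 genes differed by -0.10 (Chrnd) to 0.01 (Lrp4), and none had an unadjusted p under 0.05 (lowest edgeR adjusted p = 0.707). Replicate 4 held the lowest level of its group in 8 of the 10 genes. Without it the differences ran from -0.05 (Chrnd) to 0.04 (Rapsn), and again none had an unadjusted p under 0.05. At 3 h they ran from -0.08 (Chrnd) to 0.29 (Chrne), with SEs of 0.03 to 0.14, and none had an unadjusted p under 0.05 (lowest edgeR adjusted p = 0.183). DESeq2 gave 0 genes past an adjusted p of 0.05 at both times.

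After 6 h in differentiated cells, 4 genes were lower in stretched cells with an adjusted p under 0.05 and none was higher, where 10.8% of all genes tested were lower by that rule. Chrng stood at 388.1, 405.6, 430.3 and 394.3 CPM without stretching and at 366.0, 372.3, 333.3 and 349.5 CPM with it (log2 fold change -0.19 ± 0.05, edgeR adjusted p = 0.0155). Musk stood at 150.7, 147.6, 141.3 and 150.8 CPM and at 135.5, 135.0, 138.6 and 128.6 CPM (log2 fold change -0.14 ± 0.03, edgeR adjusted p = 0.0182). For both genes, every stretched library lay below every non-stretched one. Dok7 stood at 58.6, 62.6, 66.9 and 58.3 CPM and at 56.4, 56.9, 51.8 and 54.4 CPM (log2 fold change -0.17 ± 0.05, edgeR adjusted p = 0.0337), also with no overlap. Agrn stood at 62.4, 62.6, 57.4 and 62.9 CPM and at 49.3, 51.0, 59.0 and 51.4 CPM (log2 fold change -0.22 ± 0.05, edgeR adjusted p = 0.0159). Its stretched replicate 9 lay above the non-stretched replicate of that number, so that the groups overlapped. Within experiments the log2 difference was -0.10 in B25 and -0.27 in B28 for Chrng, -0.14 and -0.13 for Musk, -0.10 and -0.24 for Dok7, and -0.32 and -0.12 for Agrn.

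Chrng and Agrn kept an adjusted p under 0.05 with each library left out (highest 0.0437 and 0.0491). Musk lost it on removal of non-stretched replicate 7 or 10 (highest 0.0512), and Dok7 on removal of non-stretched replicate 8 or 9, or of stretched replicate 7, 9 or 10 (highest 0.0843). Musk and Dok7 also lost it with all 24 libraries of the stage in 1 model. With the replicate number as a block, Chrng (0.0508), Musk (0.0634) and Dok7 (0.0783) lost it, and Agrn stood at 0.04925 (edgeR adjusted p). Chrnd, the neighbour of Chrng on chromosome 1 (chr1:87190607-87200070, with Chrng at chr1:87204657-87212694, both on the plus strand), also had stretched libraries below the non-stretched ones, by 0.12 ± 0.04 (edgeR adjusted p = 0.0677). Chrna1 differed by 0.015 ± 0.034 and Rapsn by 0.03 ± 0.05 at this time. Summed markers of differentiated muscle ranged from 13700 to 20000 CPM without stretching and from 13530 to 21250 CPM with it. The median log2 change of these 8 markers was -0.12 and that of the 10 genes -0.13, and 1 marker, Actn2, was lower with an adjusted p under 0.05 (-0.34, edgeR adjusted p = 0.0065). Their part in these results was not tested.

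Whether the response to stretching differed between times or stages was tested by 9 interaction contrasts. No gene passed both limits in any of them (edgeR). With the adjusted p alone, the response of Rapsn in myoblasts was larger at 6 h than at 1 h, by 0.43 ± 0.05 on the log2 scale (edgeR adjusted p = 2.74e-06), and than at 3 h, by 0.40 ± 0.05 (edgeR adjusted p = 6.38e-06). That of Agrn was more negative at 6 h than at 1 h, by 0.18 ± 0.06 (edgeR adjusted p = 0.0213). The responses of Musk and Chrnb1 were more negative at 6 h than at 3 h, by 0.24 ± 0.08 and 0.14 ± 0.04 (edgeR adjusted p = 0.0231 and 0.0188). Thus 0, 2 and 3 of 9 genes passed for 3 h against 1 h, 6 h against 1 h and 6 h against 3 h, where 10.9%, 21.1% and 26.5% of all genes passed (1.42%, 3.17% and 3.72% with the fold limit). In differentiated cells 0 of 10 genes passed in each of these contrasts (all genes 5.15%, 11.9% and 12.0%, and 0.848%, 2.5% and 2.27% with the fold limit), and 0, 1 and 1 had an unadjusted p under 0.05. With experiment as a covariate, Chrng (-0.18 ± 0.06) and Agrn (-0.22 ± 0.07) passed for 6 h against 1 h in these cells and Chrne (-0.55 ± 0.19) for 6 h against 3 h (edgeR adjusted p = 0.0342, 0.0304 and 0.0484). In myoblasts Dok7 then passed for 3 h against 1 h (0.33 ± 0.11, edgeR adjusted p = 0.0414).

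Between the stages, Rapsn and Dok7 responded differently at 6 h. The response in differentiated cells minus that in myoblasts was -0.40 ± 0.08 for Rapsn (edgeR adjusted p = 0.00139) and -0.42 ± 0.11 for Dok7 (edgeR adjusted p = 0.0172). Both were higher in stretched myoblasts, and in differentiated cells Rapsn was not separable from 0 and Dok7 was lower. At 1 h and 3 h no gene passed, with 1 gene at an unadjusted p under 0.05 at each time. With experiment as a covariate, Dok7 passed at 3 h (-0.38 ± 0.10, edgeR adjusted p = 0.0267). Of all genes, 0.17%, 1.01% and 5.98% passed at 1 h, 3 h and 6 h (0.0704%, 0.188% and 0.669% with the fold limit). Each stage had its own experiments, so that a difference of stage and one of experiment cannot be told apart here either.

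Time in culture without stretching was compared at 6 h against 1 h. No member passed in either stage (edgeR), with 2 of 9 genes at an unadjusted p under 0.05 in myoblasts and 2 of 10 in differentiated cells. Of all genes, 0.788% passed in myoblasts (0.0668% with the fold limit), where 2038 of 14970 genes had an unadjusted p under 0.05, and 0.0% in differentiated cells by both rules, where 1926 of 15570 genes had an unadjusted p under 0.05.

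In each stretching comparison, 0 or 1 of the postsynaptic and cleft genes and 0 or 1 of the regulators passed both limits. The share of all genes was 1.25%, 1.71% and 2.17% in myoblasts and 0.27%, 1.63% and 2.04% in differentiated cells (1 h, 3 h and 6 h). Kcnj2, an inward rectifier potassium channel of the muscle membrane, was lower in stretched myoblasts at 1 h, at 1.55 ± 0.24 against 3.04 ± 0.39 CPM (SD, n = 4 each) (log2 fold change -0.98 ± 0.13, SE; edgeR adjusted p = 0.00138). At 3 h it stood at 2.0 ± 0.26 against 4.30 ± 0.74 CPM in myoblasts, a log2 fold change of -1.12 ± 0.13. In differentiated cells at 3 h it stood at 15.1 ± 2.0 against 23.7 ± 5.9 CPM, a log2 fold change of -0.64 ± 0.16. It was the one called gene of the 28 to 32 tested postsynaptic and cleft genes in each of these 3 comparisons, and none was called in the others. There the mean of Kcnj2 was also lower with stretching, without a call. It stood at 15.6 ± 3.1 against 23.7 ± 6.3 CPM at 1 h and 18.4 ± 2.0 against 26.5 ± 6.5 CPM at 6 h in differentiated cells. In myoblasts at 6 h it stood at 2.45 ± 0.53 against 3.16 ± 1.0 CPM. Of the 20 regulators, Myog was called lower in myoblasts at 3 h, at 1.34 ± 0.076 against 2.35 ± 0.91 CPM (log2 fold change -0.82 ± 0.23, edgeR adjusted p = 0.0167). Its libraries overlapped, at 1.24 to 1.41 CPM with stretching and 1.27 to 3.22 CPM without it. At 1 h its log2 difference was -1.25 ± 0.33 (edgeR adjusted p = 0.0501), and at 6 h it was -0.54 ± 0.17 (edgeR adjusted p = 0.0356, under the fold limit). Id3 was called lower in differentiated cells at 6 h, at 10.3 ± 1.0 against 15.5 ± 2.9 CPM (log2 fold change -0.60 ± 0.12, edgeR adjusted p = 0.00607). No other regulator was called in the 6 comparisons by edgeR.

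Across the 24 differentiated libraries, the genes whose log2 CPM followed those of 3 members most closely were picked from the 11871 genes whose mean count reached 100. For Chrna1 they were Klhl30, Lamp1 and Dusp3 (Pearson r = 0.917, 0.913 and 0.911). For Chrng they were Hfe2, Atp2a1 and Msln (r = 0.903, 0.897 and 0.895), and for Musk they were Mical3, Mtor and Insr (r = 0.89, 0.849 and 0.833). Chrne did not reach a mean of 100 counts and has no value here. Among the other members the highest values were those of Chrna1 with Rapsn and of Chrnd with Chrng (both r = 0.787), and that of Chrnb1 with Chrng was 0.745. These values are descriptions over libraries that share experiments, stretching and scaling.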

How the data were processed

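The authors aligned paired reads of stranded mRNA libraries to mm10 with STAR, quantified them with Salmon and deposited, for each stage, a table of whole-number counts per gene symbol and library, with no normalization (48 columns used, 0 left out). Of the members, Chrna1 shared 3.98% of its 31-base stretches with another gene (Gm48735), and the others at most 0.559%. Depth was 48447318 to 77080730 counts, and counting intervals cover counting error only. The authors' splicing results were not used here.

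Samples were grouped from their labels by stage, stretching and time. The members, gene lists and tests were chosen with earlier results of these data known. After filterByExpr and TMM scaling, edgeR 4.0.16 (R 4.3.3) fitted quasi-likelihood models, with Benjamini-Hochberg adjustment over all genes tested: 8 libraries for each stretching comparison, 24 for the stage, and all libraries of a stage, or 48, for interactions. Calls needed an adjusted p under 0.05 and an absolute log2 change of 0.58 or more. CPM values were scaled over all 48 libraries, and fold changes within each fit. By the study's methods, the libraries of a group were separate samples from 2 (myoblasts) or 3 (differentiated cells) independent experiments. The labels put differentiated libraries in B25 and B28, and 1 in B17. Libraries of an experiment share it, so p-values measure the spread between these libraries. A stretched myoblast library at 1 h (replicate 9) carries an experiment code of its own and was taken with B31. Alternatives were DESeq2 1.42.0, RLE scaling, other filters, covariates, libraries left out and transcript lengths. Named genes were all members, the called genes of other lists (at most the 6 with the largest change per list and comparison) and 3 nearest genes for Chrna1, Chrng and Musk. One gene that this rule names is not reported here. The tests were checked on simulated counts.

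Replicate numbers recur in stretched and non-stretched groups. In 6 of 23 pairs of equal number the deviations from the group means correlated above 0.1 (range -0.045 to 0.152). Such correlations over all tested genes cannot decide whether the numbers pair libraries. The main fits left libraries unpaired, and the replicate number as a block was an alternative.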

Additional observations from a re-analysis of the deposited data

Results flagged for a closer look

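Among 114 groups of 4 libraries with at least 10 counts of a member in some library, 7 held a library that stood apart from the other 3 by Dixon's test at the 95% level, which chance gives in about 1 of 20 groups. In myoblasts, Chrnd was at 46.4 CPM in non-stretched replicate 10 at 6 h (others 38.3 to 39.6) and Musk at 21.6 CPM in non-stretched replicate 9 at 6 h (others 23.4 to 23.6). Agrn was at 38.2 CPM in stretched replicate 10 at 3 h (others 42.5 to 43.0), and Lrp4 at 35.4 CPM in stretched replicate 7 at 6 h (others 27.97 to 28.54). In differentiated cells, Chrne was at 0.954 CPM in stretched replicate 10 at 6 h (others 1.27 to 1.32), Musk at 151.5 CPM in stretched replicate 9 at 3 h (others 134.1 to 136.1), and Agrn at 57.4 CPM in non-stretched replicate 9 at 6 h (others 62.4 to 62.9).

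The response to stretching differed between times in myoblasts, by interaction tests of edgeR with an adjusted p under 0.05, for Rapsn (0.43 at 6 h against 1 h, 0.40 at 6 h against 3 h), Agrn (-0.18 at 6 h against 1 h), Musk (-0.24 at 6 h against 3 h) and Chrnb1 (-0.14 at 6 h against 3 h), all on the log2 scale. It differed between the stages at 6 h for Rapsn (-0.40) and Dok7 (-0.42), as differentiated cells minus myoblasts. Each of these differences stayed under the fold limit of 0.58.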

How the results depend on the processing

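No member passed both limits on stretching under DESeq2, RLE scaling, either filter, the experiment as a covariate, all libraries of the stage in one model or any library left out (0 to 0 members in each comparison). Dropping the fold limit gave 3 members in myoblasts at 3 h, 4 in myoblasts at 6 h and 4 in differentiated cells at 6 h. By that rule the counts over single libraries left out ran from 1 to 4, 2 to 4 and 3 to 4. All 24 libraries in 1 model gave 1, 4 and 2, RLE scaling 2, 4 and 4, and DESeq2 4, 4 and 5. In myoblasts at 1 h the count of 0 became 1 (Chrnd) with experiment as a covariate and 1 without stretched replicate 8. With the replicate block, 1 member was called in myoblasts at 1 h, Chrng (log2 fold change -0.66, edgeR adjusted p = 0.0165). At the adjusted p alone, the block moved the count from 0 to 2 in myoblasts at 1 h (Chrnd, adjusted p = 0.0131) and from 4 to 1 in differentiated cells at 6 h, where Chrng (0.0508), Musk (0.0634) and Dok7 (0.0783) went past 0.05. Both libraries of a pair correlated best with their own number in 7 of 23 pairs. With the experiment as a covariate, 1 difference of response was called at both limits, that of Chrne between the stages at 6 h (edgeR adjusted p = 0.0378). There myoblasts held 7 counts without stretching and 0 with it. A further 5 differences that had not passed in the main fit did so at the adjusted p alone. The stage comparison called 9 members in all 8 alternatives, which included the counts summed per experiment and the stretched libraries. Of 935 fold changes of stretching and of stage recomputed, 1 gained a call and none lost one or turned its direction with a call, and 47 changed sign with no call. With the longest transcript, 15 of 20 levels per length moved by more than 1 SD. Chrne in myoblasts (0 to 3 counts a library) is below what this depth can compare.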

Other observations

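Of 11 neuronal-type acetylcholine receptor subunits, 2 passed the filter on low counts in the stage comparison, and both were called higher in differentiated cells. Of all genes tested, 26.4% were called higher there. Chrna10 held 7 counts over the 12 non-stretched myoblast libraries and 199 over the 12 differentiated ones, and Chrnb2 stood at 0.750 ± 0.14 and 1.29 ± 0.20 CPM (SD, n = 12 each; log2 fold change 0.76 ± 0.10, SE). Chrne stood at 1.37 ± 0.16 CPM in differentiated cells. On stretching, none of the 1 or 2 subunits tested had an adjusted p under 0.05 in any comparison by edgeR.

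Of the marker lists, the choline transporter Slc5a7 was the one motor neuron marker that passed the filter, in myoblasts and in the stage comparison. It was called lower in stretched myoblasts at 3 h (log2 fold change -0.94 ± 0.27, edgeR adjusted p = 0.0168) and in non-stretched differentiated cells against myoblasts (-2.03 ± 0.26), with 0.438 ± 0.15 CPM in non-stretched myoblasts. The Schwann cell marker Mbp, at 1.04 ± 0.18 CPM there, was called lower in stretched myoblasts at 6 h (-0.63 ± 0.15), in stretched differentiated cells at 3 h (-0.91 ± 0.21) and in differentiated cells against myoblasts (-1.21 ± 0.13). No marker of differentiated muscle or of proliferating myoblasts was called on stretching in the 6 comparisons by edgeR. In differentiated cells 8 of 8 and 6 of 7 were called higher and lower, respectively (26.4% and 24.1% of all genes). Pax7, of the proliferation list, was higher there by 0.23 ± 0.03, under the fold limit.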
